A study of Ovis aries with 18 samples.

Results

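Glutathione is the main small thiol of animal cells, and this section describes the genes that make, recycle, use and degrade it, together with GGT7, a gamma-glutamyl transferase gene, in sheep blastocysts sired by rams on different diets. The list held 10 genes: GGT7, GCLC, GCLM, GSS, GSR, GPX1, GPX4, PRDX1, SOD1 and TXN. GGT7 was chosen by its high counts in 2 pools sired by control rams, so its values are given as a description with no test. The other genes were listed for their function. SOD1 and TXN were not analysed here, which left 8 genes of the 20092 in the count table, 7 of them not chosen by their values. All 8 had at least 15 counts in more than 3 pools, as did 16488 genes in total.

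Glutathione is built in steps. Glutamate-cysteine ligase, made of a catalytic subunit (GCLC) and a modifier subunit (GCLM), joins glutamate to cysteine, and glutathione synthetase (GSS) adds glycine. Cysteine can be made from methionine by transsulfuration, which ties the methionine supply to this pathway. Peroxidases such as GPX1 and GPX4 oxidize glutathione while they reduce peroxides, and glutathione reductase (GSR) returns it to the reduced form. Outside the cell, gamma-glutamyl transferases such as GGT1 split the gamma-glutamyl bond so that the amino acids can be taken up again. Preimplantation embryos carry a store of glutathione laid down in the oocyte.

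The embryos came from 7 superovulated Polypay ewes mated with Polypay rams that had been fed either a basal diet (control) or the same diet with an added 0.22% (1.5 g) of rumen-protected methionine. Feeding lasted 77 days and began at 88 days of age on average. Blastocysts, labelled as inner cell mass and trophectoderm, were flushed 8 days after the rams were introduced, and RNA was measured in 12 pools of 5 embryos. The control group had 6 pools from Ram410, Ram423 and Ram444 (2 pools each), and the methionine-treated group had 6 pools from Ram424 (4 pools), Ram498 (1 pool) and Ram511 (1 pool). All pools went through whole transcriptome amplification, and their counts summed to between 1173289 and 1554651 in the control group and between 1017847 and 2398589 in the methionine-treated group. The study reports far more reads per pool than these sums, so most reads are not among the gene counts. The reason was not tested. The groups differed by design in the sire's diet. Pools named for one ram have the same sire, and the ewe of each pool is not given in the labels, so p-values over pools measure the spread between pools rather than between independent matings. Levels are given as CPM, counts scaled to library totals of equal size with TMM factors. They were compared between pools for the same gene, because CPM does not account for transcript length. Where levels of different genes are set side by side, that limit applies.

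Embryo444_2 (control) and Embryo511_1 (methionine-treated) stood apart from the other 10 pools. Their median Spearman correlation with the other pools over genes was 0.582 and 0.600, against 0.820 to 0.857 for the rest. The summed level of the 7 trophectoderm markers matched (of 10 listed) was 205 CPM in Embryo444_2 and 144 CPM in Embryo511_1, and 5181 to 14411 CPM in the other 10 pools. KRT8, a keratin of trophectoderm, was at 116 and 42.6 CPM against 3893 to 11862 CPM. All 7 were below the other 10 pools in both. The inner cell mass markers summed to 142 and 297 CPM against 434 to 1227 CPM, with POU5F1 and SALL4 low and PRDM14 high (43.9 and 83.3 CPM against at most 37.9 CPM). The hypoblast markers summed to 273 and 289 CPM against 419 to 961 CPM. Of these GATA6 was low (38.9 and 66.4 CPM against 249 to 801 CPM), while FOXA2 was high (39.6 and 13.9 CPM against at most 9.21 CPM). Oocyte markers reached 719 CPM in Embryo511_1 and sperm and testis markers 1066 CPM, of which TNP1, a transition protein of sperm chromatin, made up 1008 CPM. In the other 10 pools these lists stayed within 90.7 to 149 CPM and 16.4 to 101 CPM. Granulosa markers (147 and 55.5 CPM against 46.4 to 108 CPM), uterine markers (188 and 199 CPM against 99.5 to 162 CPM) and neural and muscle markers (218 and 200 CPM against 107 to 225 CPM) differed less. Leukocyte and blood markers summed to 131 and 265 CPM against 69.2 to 680 CPM, but the 2 matched genes went opposite ways. PTPRC was high (121 and 254 CPM against 40.2 to 76.5 CPM) and ALAS2 low (9.91 and 10.9 CPM against 14.5 to 622 CPM). None of the matched markers was at 0 in all pools. The neural and muscle genes, listed as not in a blastocyst, had medians of 7.15 (ACTA1) to 45.5 CPM (MYH7B) in the other 10 pools. GGT7, GCLM, GSS, GSR and PRDX1 had medians of 26.1 to 37.4 CPM there, numerically within that range. Transcript length is not accounted for between these genes, so the ranges are set side by side as a caution only. How much of such levels is background was not tested. Results that rest on these pools are given with and without them, and the part of cell makeup in those results was not tested.

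GGT7 encodes gamma-glutamyltransferase 7, a member of the transferase family. Its level in the control pools was 20.3 CPM in Embryo410_1, 1371 CPM in Embryo410_2, 19.3 CPM in Embryo423_1, 32.7 CPM in Embryo423_2, 832 CPM in Embryo444_1 and 49.6 CPM in Embryo444_2. In the methionine-treated pools it was 22.5, 30.6, 16.9 and 14.3 CPM in Embryo424_1 to Embryo424_4, 32.5 CPM in Embryo498_1 and 54.5 CPM in Embryo511_1. The control group thus held a pair of pools far above the rest, and its other 4 pools (median 26.5 CPM, 19.3 to 49.6 CPM) lay within the range of the methionine-treated pools (median 26.5 CPM, 14.3 to 54.5 CPM). Embryo410_2 and Embryo444_1 stood 51.7 and 31.4 times above the median of the other 10 pools. They rested on 1936 and 1173 counts, while the other pools had 24 to 70 counts.

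The high pools did not follow the sire. Embryo410_2 was 67.5-fold above Embryo410_1, and Embryo444_1 was 16.8-fold above Embryo444_2, the other pool of the same ram in each case, and both pools of Ram423 were at the low level. Together the pair held 94.7% of the GGT7 counts of the control group. The group means were 388 ± 579 CPM (SD, n = 6) in control and 28.5 ± 14.6 CPM (SD, n = 6) in methionine-treated pools, and the control SD was larger than the control mean. The fitted log2 fold change of methionine-treated over control pools was -3.77, a description that rests on the pools by which GGT7 was chosen. The group medians were 41.1 CPM in control and 26.5 CPM in methionine-treated pools. Without Embryo410_2 the fitted value was -2.75 and without Embryo444_1 it was -3.40. With the ram as a random effect in limma it was -1.80. After the high pair, the next levels were those of Embryo511_1 and Embryo444_2, the pools that stood apart, and without these it was -4.28.

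GGT7 was chosen by its high counts in Embryo410_2 and Embryo444_1, so its spread and its place among the genes below follow from that choice. Over the 12 pools the coefficient of variation of GGT7 was 208%, against a median of 42.2% over all genes tested. Its highest level was 43.5 times its median, against 1.96 times for the median gene. A level at least 10 times the median of the other 10 pools in each of the 2 highest pools was found for 11 genes (0.0667% of those tested), GGT7 included. Among the others were ALAS2, FSTL3, SNCG, SOST and TRAM1L1. Of the 11, 3 had both high pools in the control group and 8 had at least 1 in the methionine-treated group. Embryo444_1 was a high pool of 5 of the 11, and GGT7 was the only one high in Embryo410_2 and Embryo444_1 together. None of the other 7 listed genes and none of the 61 further pathway genes tested had this pattern.

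**Figure D1:**
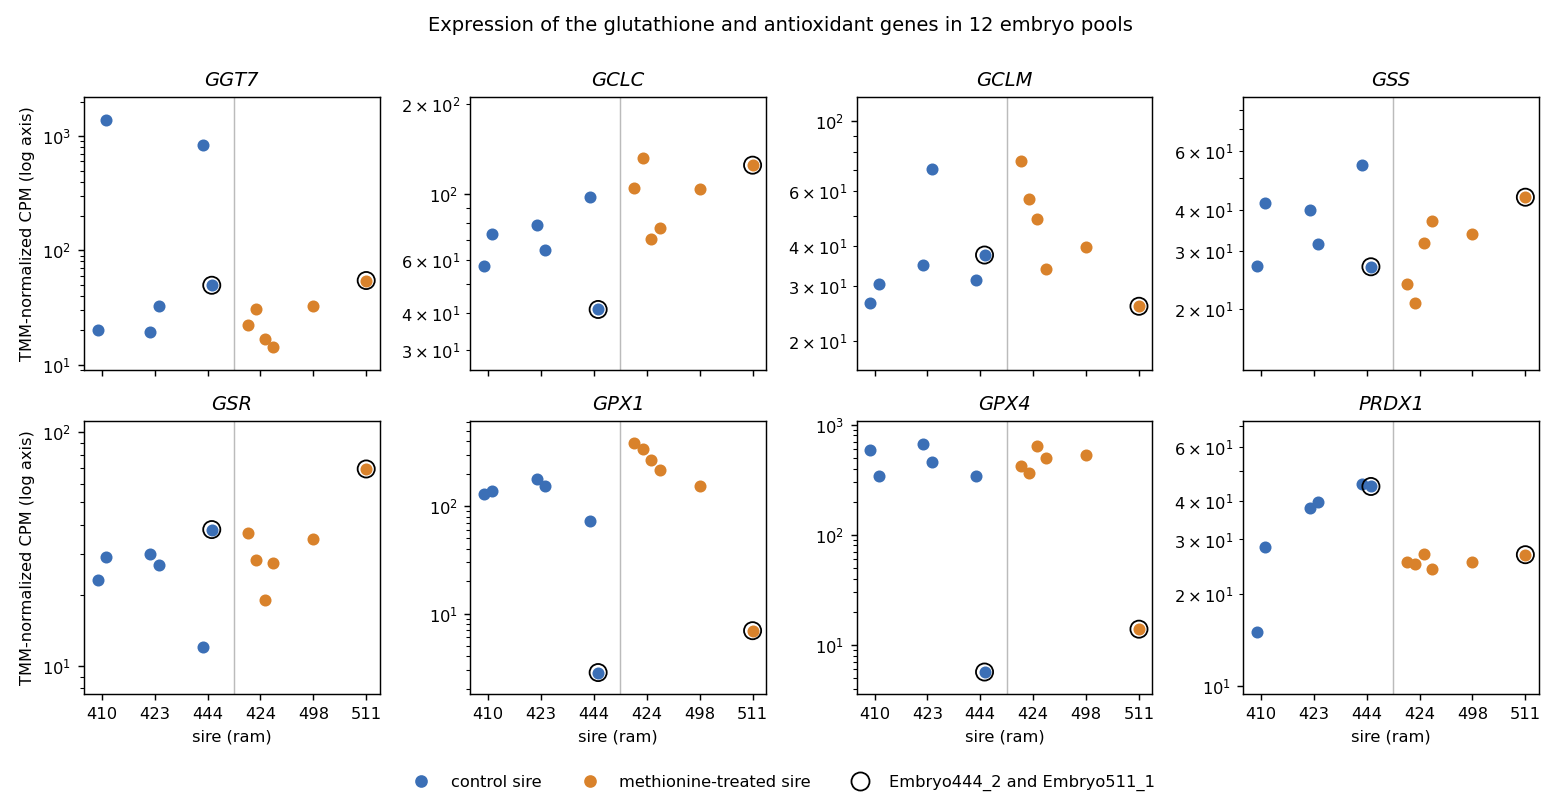
Level of each listed gene (CPM after TMM scaling, log axis, a separate range for each gene) in the 12 pools, with 1 point per pool, placed by sire and coloured by the sire's diet. Black rings mark Embryo444_2 and Embryo511_1. GGT7 is high in a pair of control pools (832 and 1371 CPM) and 14.3 to 54.5 CPM elsewhere, and GPX1 and GPX4 are lowest in the ringed pools.

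None of the genes beside GGT7 on the chromosome rose to a like extent in its high pools. By gene order in the assembly ARS-UI_Ramb_v3.0, the protein-coding neighbours are PIGU, TP53INP2 and NCOA6 on the one side and ACSS2, GSS and MYH7B on the other, so that GSS, itself on the list, lies next but one to GGT7. The ratio of the level in Embryo410_2 to the median of the other 10 pools was 0.717 for PIGU, 0.893 for TP53INP2, 0.787 for NCOA6, 1.26 for ACSS2, 1.32 for GSS and 0.825 for MYH7B. In Embryo444_1 the ratios were 0.786, 0.786, 0.641, 1.32, 1.73 and 1.20 in the same order. ACSS2 and GSS had their highest levels of all pools in Embryo444_1 (64.6 and 54.6 CPM), and NCOA6 its lowest (73.8 CPM).

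**Figure D2:**
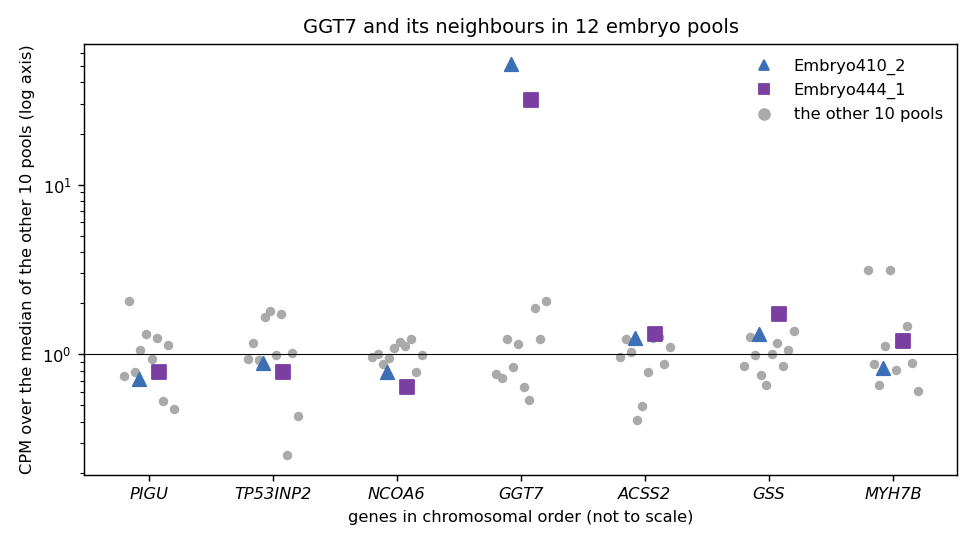
Level of GGT7 and of 3 neighbouring genes on each side, in chromosomal order, relative to the median of the 10 pools other than Embryo410_2 and Embryo444_1 (log axis, 1 point per pool). GGT7 is at 51.7 and 31.4 in the pair of high pools, while the neighbours are between 0.641 and 1.73 there.

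GGT6, another transferase of the family, shared the high pools of GGT7 only in part. GGT6 was at 211 CPM in Embryo410_1 and 61.0 CPM in Embryo444_1, and at 3.97 to 23.4 CPM in the other 10 pools. GGT6 and GGT7 were thus both high in Embryo444_1, while in Ram410 they were high in different pools. GGT5 was at 0.991 to 7.76 CPM and did not pass the filter on low counts. GGT1 was not analysed here.

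The 5 genes whose log2(CPM + 1) followed that of GGT7 most closely over the 12 pools were ZSCAN23 (Pearson's r = 0.928), DNAI2 (0.881), LDLRAD4 (0.869), LOC101107697 (0.863) and ARMH1 (0.845). ZSCAN23 encodes a zinc finger protein and DNAI2 an intermediate chain of axonemal dynein. In Embryo410_2 and Embryo444_1 these genes were 1.81 to 3.51 times the median of the other 10 pools, far less than GGT7. Spearman's rho with GGT7 was 0.566 to 0.797 for the 5 genes. With Embryo410_2 and Embryo444_1 left out, Pearson's r was 0.654 for ZSCAN23, 0.593 for DNAI2, 0.237 for LDLRAD4, 0.655 for LOC101107697 and 0.239 for ARMH1. Under either change other genes were more alike, and 0 of the 5 stayed among the 5 most alike. All points come from the same 12 libraries.

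For the 7 genes not chosen by their values, none passed an FDR of 0.05 between sire diets in edgeR's quasi-likelihood test, in the likelihood-ratio test or in DESeq2. In the quasi-likelihood test, 0% of all 16488 genes tested passed, and 7.92% had an unadjusted p under 0.05, as did 1 of the 7 (GCLC). The likelihood-ratio test called 5 genes and DESeq2 16 over all genes. Of the 7, 5 were higher and 2 lower in methionine-treated pools, with a median log2 fold change of 0.28, against 0.01 over all genes tested. Pools of one diet lay wholly above those of the other for 0 of the 7 and for 0.352% of all genes tested.

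GCLC, the catalytic subunit of glutamate-cysteine ligase, which carries out the rate-limiting step of synthesis, was at 57.2, 73.7, 78.6, 64.8, 97.9 and 41.1 CPM in the control pools, in the order Embryo410_1, Embryo410_2, Embryo423_1, Embryo423_2, Embryo444_1 and Embryo444_2. It was at 105, 132, 70.6, 77.2, 104 and 125 CPM in the methionine-treated pools, in the order Embryo424_1 to Embryo424_4, Embryo498_1 and Embryo511_1. All 6 methionine-treated pools were above the control median of 69.2 CPM, although the groups overlapped between 70.6 and 97.9 CPM. The means were 68.9 ± 19.4 CPM and 102 ± 24.6 CPM (SD, n = 6 each). The log2 fold change was 0.57 (SE 0.25), with an unadjusted p of 0.0365 and an FDR of 0.608 in edgeR's quasi-likelihood test.

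When the mean log2(CPM + 1) was permuted exactly over pools (two-sided test), GCLC had a p of 0.0303, the only one of the 7 genes under 0.05. Over ram means, the 3 methionine-treated rams were all above the 3 control rams, and the exact two-sided permutation p was 0.1, the smallest that 3 rams against 3 can give. Without Embryo444_2 and Embryo511_1 the p over ram means was 0.4 in the same kind of exact permutation test. Ram444 was then left with Embryo444_1 (97.9 CPM), and Ram511 had no pool. With fewer rams there were fewer assignments, and the smallest p possible was above 0.1. The lowest GCLC level was in Embryo444_2 and the second highest in Embryo511_1, the pools that stood apart, so that both widened the difference. Without them the log2 fold change was 0.38 (edgeR FDR 0.508), and the exact permutation p over pools was 0.111.

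GCLM, the modifier subunit of the same enzyme, was at 26.3, 30.5, 35.0, 70.6, 31.2 and 37.5 CPM in the control pools and at 74.6, 56.6, 48.7, 33.9, 39.7 and 25.8 CPM in the methionine-treated pools, in the same order of pools. The highest levels were in Embryo424_1 and Embryo423_2, of different diets, and the groups overlapped over most of their range. The means of 38.5 ± 16.2 CPM and 46.6 ± 17.5 CPM (SD, n = 6 each) differed by less than either SD, and the log2 fold change was 0.28 (SE 0.31, edgeR FDR 0.833).

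GSS, which completes glutathione by adding glycine, was at 27.1, 41.8, 40.0, 31.4, 54.6 and 26.9 CPM in the control pools and at 23.9, 20.9, 31.8, 36.9, 33.7 and 43.6 CPM in the methionine-treated pools. The lowest levels were in Embryo424_2 and Embryo424_1 and the highest in Embryo444_1. The log2 fold change was -0.22 (SE 0.27, edgeR FDR 0.846), on means of 37.0 ± 10.7 CPM and 31.8 ± 8.36 CPM (SD, n = 6 each). No difference in either GCLM or GSS was detectable beyond the spread between pools.

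GSR, the reductase that regenerates glutathione with NADPH, was at 23.3, 29.0, 30.0, 26.9, 12.1 and 38.2 CPM in the control pools and at 36.8, 28.3, 19.1, 27.5, 34.9 and 69.4 CPM in the methionine-treated pools. Its highest levels were in Embryo511_1 (69.4 CPM) and Embryo444_2 (38.2 CPM), 1 of each diet. Both these pools were above all the other 10 for 8.15% of all genes tested, and for GSR alone of the 7. The log2 fold change between diets was 0.42 (SE 0.34, edgeR FDR 0.757), and 0.26 without these pools.

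GPX1, the cytosolic peroxidase that reduces hydrogen peroxide, was at 129, 139, 177, 154, 72.4 and 2.83 CPM in the control pools and at 385, 341, 270, 216, 152 and 6.94 CPM in the methionine-treated pools. All 4 pools of Ram424 (216 to 385 CPM) were above every other pool, of which the highest was Embryo423_1 with 177 CPM. The pool of Ram498, with 152 CPM, lay among the control pools. At the low end, Embryo444_2 and Embryo511_1 held 4 and 7 counts, against 102 to 806 counts in the other pools. The means were 112 ± 64.1 CPM and 229 ± 137 CPM (SD, n = 6 each), and the log2 fold change was 1.03 (SE 0.70, edgeR FDR 0.732).

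The error of the GPX1 difference depended on the pools that stood apart. Without them the log2 fold change was 1.01, near the value from all pools, but its SE fell to 0.28, with an unadjusted p of 0.00214 and an FDR of 0.251 in edgeR's quasi-likelihood test. The exact permutation p over pools was 0.446 with all 12 and 0.0238 without them. Over ram means the exact permutation p was 1 with all 6 rams and 0.4 without these pools, a test with no pool of Ram511 and fewer assignments. Without Ram424 the log2 fold change was -0.48. The methionine-treated group then held Embryo498_1 (152 CPM) and Embryo511_1 (6.94 CPM) only, and without Embryo444_2 the 5 other control pools lay between 72.4 and 177 CPM, on both sides of Embryo498_1. Ram424 gave 4 of the 6 methionine-treated pools, and for GPX1 the diet and this sire cannot be told apart.

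GPX4, the peroxidase that reduces lipid hydroperoxides in membranes, was at 591, 341, 672, 457, 342 and 5.66 CPM in the control pools and at 417, 366, 647, 494, 525 and 13.9 CPM in the methionine-treated pools. In the 10 pools other than Embryo444_2 and Embryo511_1 it lay between 341 and 672 CPM in both diets. The means of 402 ± 235 CPM and 410 ± 217 CPM (SD, n = 6 each) were close, and the log2 fold change was 0.03 (SE 0.75, edgeR FDR 0.995). Without these 2 pools it was 0.02 with an SE of 0.25, the least difference among the 7 genes.

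PRDX1, a peroxiredoxin that reduces peroxides with thioredoxin rather than glutathione, was at 15.1, 28.3, 37.9, 39.8, 45.4 and 44.6 CPM in the control pools. In the methionine-treated pools it was at 25.3, 24.9, 26.8, 24.1, 25.3 and 26.8 CPM. None of the 6 methionine-treated pools was above the control median of 38.8 CPM, and only Embryo410_1 of the control pools was below them. The log2 fold change was -0.46 (SE 0.28, edgeR FDR 0.695), on means of 35.2 ± 11.6 CPM and 25.5 ± 1.07 CPM (SD, n = 6 each). The methionine-treated pools held 27 to 53 counts each, for which counting alone gives an SD of 4.06 CPM, so that their SD of 1.07 CPM was below the counting error. The counting SD of the control pools was 4.96 CPM.

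**Figure D3:**
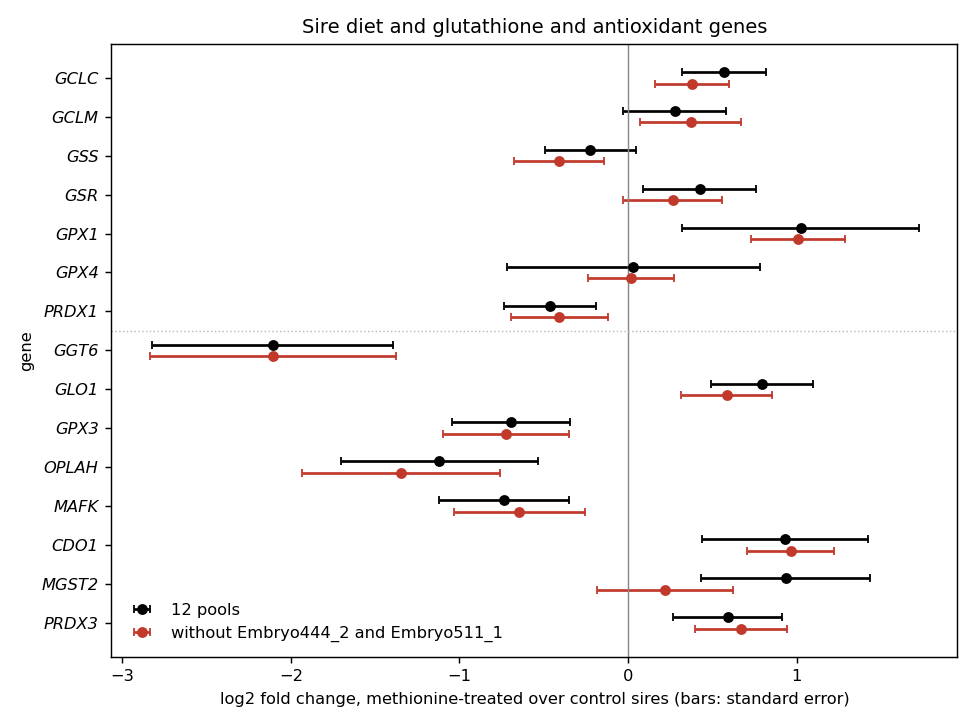
Log2 fold change of methionine-treated over control pools with its standard error, from edgeR, for the 7 listed genes not chosen by their values (above the dotted line) and the 8 further pathway genes with the smallest p (below it). Black points use 12 pools, red points leave out Embryo444_2 and Embryo511_1. The error bar of GPX1 shortens from 0.70 to 0.28 and that of GPX4 from 0.75 to 0.25 without these pools.

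Among 85 further genes of glutathione use and antioxidant defence, 63 were matched by symbol and 61 tested. None passed an FDR of 0.05 in edgeR's quasi-likelihood test, in the likelihood-ratio test or in DESeq2, which called 0, 5 and 16 over all genes. In the quasi-likelihood test 2 (3.28%) had an unadjusted p under 0.05, against 7.92% of all genes tested. Of these, GLO1 was higher and GGT6 lower in methionine-treated pools. Among the 61, the log2 fold change was positive for 32 and negative for 29, with a median of 0.01, as over all genes tested. By group, 6 of 12 genes of the gamma-glutamyl cycle and glutathione transport were positive, 3 of 5 of cysteine supply, 3 of 5 further glutathione peroxidases and 4 of 8 glutathione transferases. So were 2 of 6 glutaredoxins and glyoxalases, 9 of 13 thioredoxin and peroxiredoxin genes, 1 of 3 genes of superoxide and peroxide removal and 4 of 8 genes of NRF2 control and its targets. The 1 gene tested of NADPH supply was negative.

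GLO1, the glyoxalase that uses glutathione to remove methylglyoxal, was at 17.0 to 54.2 CPM in the control pools and 39.8 to 92.2 CPM in the methionine-treated pools, all 6 of which were above the control median of 36.7 CPM. Its log2 fold change was 0.80 (SE 0.30, unadjusted p = 0.0174, edgeR FDR 0.585), and 0.59 without Embryo444_2 and Embryo511_1. GGT6 had the largest difference of the named pathway genes, -2.11 (SE 0.72, unadjusted p = 0.00926, edgeR FDR 0.584), with the high levels in Embryo410_1 and Embryo444_1 given above. Without Embryo410_1 the value for GGT6 was -0.85 (SE 0.53), and with the ram as a random effect in limma it was -1.06 (SE 0.92). OPLAH, the 5-oxoprolinase that returns glutamate to the gamma-glutamyl cycle, had a log2 fold change of -1.12 (SE 0.58). It was at 100.1 CPM in Embryo444_1 and 6.88 to 17.2 CPM in the other 11 pools, and without Embryo444_1 its log2 fold change was 0.07.

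CDO1, the dioxygenase that commits cysteine to oxidation, had a log2 fold change of 0.93 (SE 0.49), and PRDX3, the mitochondrial peroxiredoxin, one of 0.59 (SE 0.32). Both had their highest levels in Embryo424_1 and Embryo424_2, 269 and 282 CPM for CDO1 and 145 and 147 CPM for PRDX3. Without Embryo444_2 and Embryo511_1 the log2 fold change of CDO1 was 0.97 (SE 0.26, unadjusted p = 0.00163, edgeR FDR 0.24) and that of PRDX3 was 0.67 (SE 0.27, unadjusted p = 0.026, edgeR FDR 0.365). Without Ram424 the values were -0.37 and -0.44, on Embryo498_1 (120 CPM for CDO1 and 54.2 CPM for PRDX3) and Embryo511_1 (14.9 and 35.7 CPM) as the methionine-treated pools left. Embryo424_1 and Embryo424_2 were also the most alike of all pairs of pools from one ram (Spearman 0.955). MGST2, a microsomal glutathione transferase, differed by 0.94 (SE 0.50) and was highest in Embryo511_1 with 41.6 CPM. Without Embryo511_1 the value for MGST2 was 0.40, and without Embryo444_2 as well it was 0.22 (SE 0.41). GPX3, the secreted peroxidase, differed by -0.69 (SE 0.35), and MAFK, a small Maf partner of NRF2, by -0.74 (SE 0.39).

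In Embryo444_2 and Embryo511_1, GPX1 and GPX4 were far below the other 10 pools. The genes of glutathione synthesis and the other glutathione peroxidases tested were not lowered to that extent. GPX4 was at 1.19% and 2.92% of the median of the other 10 pools, from 8 and 14 counts. The exact 95% binomial intervals were 2.94 to 13.4 and 7.52 to 23.1 CPM on the unscaled total of the pool. GPX1 was at 1.71% and 4.19% of that median, from 4 and 7 counts, with intervals of 0.929 to 8.73 and 2.77 to 14.2. These intervals cover counting error only and lie far below the lowest of the other 10 pools, 341 CPM for GPX4 and 72.4 CPM for GPX1. GCLC was at 52.7% and 160%, GCLM at 100.4% and 69.0%, GSS at 82.2% and 133%, and PRDX1 at 171% and 103%. Of the further glutathione peroxidases, GPX2 was at 39.1% and 51.6%, GPX3 at 162% and 108% and GPX6 at 130% and 38.0%. GPX7 was at 140% and 285%, and GPX8 at 47.4% and 37.9%.

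A level at or below 10% of the median of the other 10 pools in both was found for 0.528% of all genes tested, for 2 of the 7 listed genes (GPX1 and GPX4) and for 0 of the 61 further pathway genes. Levels in both below all the other 10 pools were found for 12.9% of all genes tested, for the same 2 listed genes and for 17 of the 61 pathway genes (27.9%). With CPM by total counts, without TMM factors, the pathway count was 14, and the share over all genes is not given for that scaling. Those 17 included TXN2, the mitochondrial thioredoxin (3.03% and 13.6% of the median), PRDX5, a peroxiredoxin (5.02% and 35.8%), FTL, the ferritin light chain (9.34% and 22.4%), and CDO1 (19.1% and 11.5%). They also included NFE2L2, which encodes NRF2 (43.4% and 20.7%), its inhibitor KEAP1 (61.0% and 19.0%) and the catalase gene CAT. The median over the 61 pathway genes was 67.9% in Embryo444_2 and 74.6% in Embryo511_1, against 104% and 99.2% over all genes tested. The trophectoderm markers were low in the same pools, and their part in these levels was not tested. In bulk pools, fewer cells of a type and less RNA per cell cannot be told apart.

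**Figure D4:**
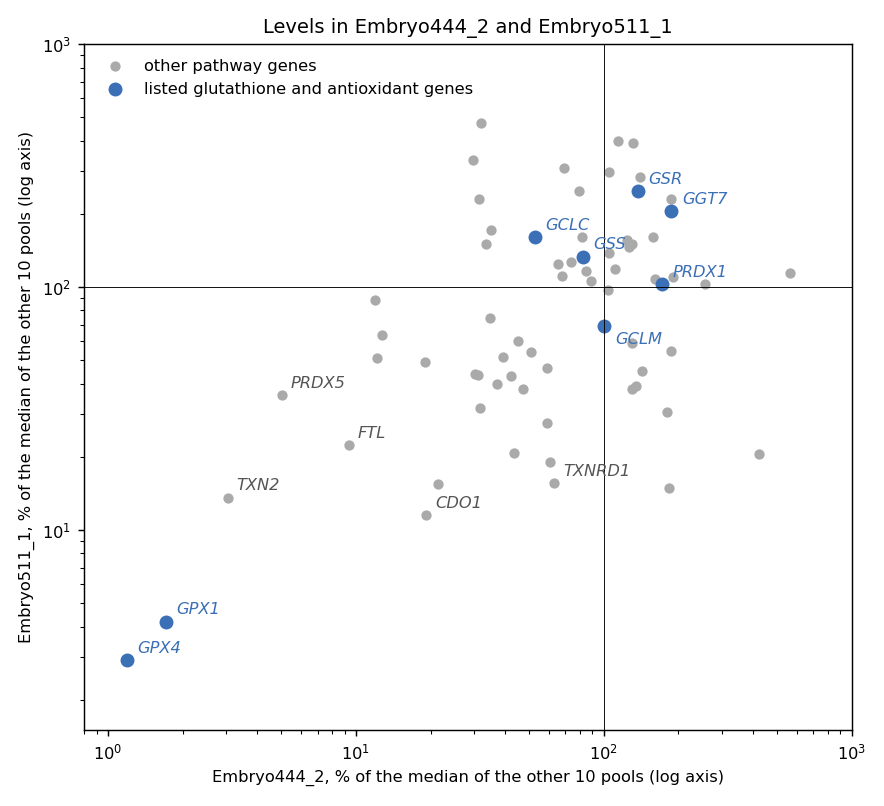
Level in Embryo444_2 (horizontal) and Embryo511_1 (vertical) as a percentage of the median of the other 10 pools, both on log axes, for the 8 listed genes (blue) and the 61 further pathway genes tested (grey). Lines mark 100%. GPX1 and GPX4 lie at 1.19% to 4.19% on both axes, apart from the synthesis genes GCLC, GCLM and GSS at 52.7% to 160%.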

How the data were processed

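RNA was measured in 12 pools of blastocysts, grouped by the diet and ram in their labels. The authors trimmed the reads with Trimmomatic, aligned them with STAR to Oar_rambouillet_v1.0 and deposited raw counts per gene and pool. Whether counting used strand is not given in the sources used here, so reads of overlapping antisense genes cannot be told apart, and there were no molecular identifiers. A gene was kept where more than 3 pools had 15 counts or more, which left 16488 of 20092. These were scaled by TMM and tested for diet in edgeR (version 4.0.16, under R version 4.3.3) with its quasi-likelihood test, at an FDR under 0.05 (Benjamini-Hochberg over all genes tested). The filter, as worded in the study's methods, the scaling and the model follow the study, which used the likelihood-ratio test. With at least 3 pools in place of more than 3, the filter leaves 16979 genes, the size of the study's gene set. SE is the absolute log2 fold change divided by the square root of F. Levels of the 7 genes not chosen by their values were compared by exact two-sided permutation over 924 assignments of pools and 20 of rams. Without Embryo444_2 and Embryo511_1 there were fewer assignments of both. Alternatives used limma 3.58.1 and DESeq2 1.42.0. Tables and figures were made in Python (version 3.11.15), using scipy 1.17.1, numpy 2.4.6, matplotlib 3.10.9 and pandas 2.3.3.

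The genes and lists were chosen with earlier results of these data known. Named were the listed genes, the other transferases GGT1, GGT5 and GGT6, the 8 pathway genes with the smallest p, 3 neighbours on each side of GGT7 (by order in RefSeq genes of ARS-UI_Ramb_v3.0) and the 5 genes most like GGT7. The low pathway genes of Embryo444_2 and Embryo511_1 and the genes high in a pair of pools were named after their values were seen. No pair of pools from one ram agreed within sampling noise (chi-square over degrees of freedom 3.29 to 26.1), so none was taken as a library deposited more than once. This does not make pools of a ram independent: their consensus correlation in limma was 0.263. The sperm methylation counts were not used here, because no annotation of their build was at hand.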

Additional observations from a re-analysis of the deposited data

Results flagged for a closer look

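In 32 groups of 6 pools (16 genes in each diet), 5 had a pool whose gap to its neighbour was over 0.625 of the range, where chance gives about 1 in 20 groups. Over all genes tested the share was 16.7% of groups, so the count is near the background. The 16 genes included GGT7 and 8 named for a small p, and all groups share the same 12 pools. GCLM was high in Embryo423_2 among the control pools, with 70.6 CPM. GSR was high in Embryo511_1 among the methionine-treated pools, with 69.4 CPM, and so was MGST2, with 41.6 CPM. GGT6 was high in the control pool Embryo410_1, with 211 CPM, and OPLAH in the control pool Embryo444_1, with 100.1 CPM. GGT7 did not meet this criterion in the control group, since its high pools were a pair and the gap between them was smaller.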

How the results depend on the processing

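The count of genes past an FDR of 0.05 stayed at 0 for the 7 listed genes and for the 61 pathway genes under all 26 alternatives of the fit. These included each pool and each ram left out. Over all genes tested, the likelihood-ratio test called 5, DESeq2 16 and the fit without Embryo444_2 and Embryo511_1 called 1. Every other alternative called 0, so a count of 0 is not particular to these genes. Over the 15 named genes tested other than GGT7, 373 of 390 alternative log2 fold changes kept their direction, and 8 genes had no reversal, GCLC, GSR, PRDX1, GGT6 and GLO1 among them. Most alternatives share nearly all pools, so a kept direction is a weak criterion. For GCLC the unadjusted quasi-likelihood p was 0.0161 without Embryo444_1 and 0.103 without Embryo444_2 and Embryo511_1. The log2 fold change of GSR was 0.14 without Embryo511_1 and 0.96 without Ram424. GPX4, whose log2 fold change was near 0, reversed to -0.21 with pools summed per ram and to -0.45 with the ram as a random effect in limma, and ranged from -0.57 to 0.36 with a pool or ram left out. With a pool or ram left out, the range was -0.23 to 0.57 for GCLM, -0.33 to 0.064 for GSS, -0.48 to 1.41 for GPX1, -0.37 to 1.17 for CDO1 and -0.44 to 0.76 for PRDX3, and in each the reversal came without Ram424, which leaves Embryo498_1 and Embryo511_1 as methionine-treated pools. For OPLAH it was -1.52 to 0.066, reversed without Embryo444_1. The cause was not tested. Added after the values were seen, leaving out Embryo444_2 and Embryo511_1 moved the difference in mean log2(CPM + 1) of GCLC from 0.58 (exact permutation p = 0.0303) to 0.37 (p = 0.111), while that of GPX1 was 1.01 with all pools (exact permutation p = 0.446) and 1.0 without them (p = 0.0238). Both calls were the same with log2(CPM + 0.5) and with plain CPM. No paired analysis was possible because replicate names are not shared between diets. The sperm methylation comparisons were not run. The lowest counts, 4 to 14 for GPX1 and GPX4 in the pools that stood apart, limit the precision of those levels.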
